A study of Mus musculus with 9 samples.

Results

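The Iroquois genes *Irx1*, *Irx2* and *Irx4* of the IrxA cluster and *Irx3* and *Irx5* of the IrxB cluster were followed in mouse hearts in which *Ctcf* had been deleted. They were chosen by gene family and cluster, and 5 of the 14011 genes with values were members. *Irx6*, the remaining IrxB gene, also had values and is given beside them as a further gene of the same family. RNA from whole hearts at embryonic day 10.5 was sequenced in 9 libraries, 3 for each of 3 genotypes, and every library came from a pool of 6 hearts. Controls carried no Cre, heterozygotes were *Ctcf* fl/+; *Nkx2.5-Cre*/+ and homozygotes were *Ctcf* fl/fl; *Nkx2.5-Cre*/+, all on a mixed strain background. The sample labels give the controls as *Ctcf* fl/fl, whereas the study's methods give them as *Ctcf* fl/+, and a floxed allele was shared by all groups under either description. The column names of the table are ambiguous between controls and heterozygotes, and if they were read the other way these groups would change places, while homozygotes would stay as they are. *Nkx2.5-Cre* recombines floxed alleles in early cardiac cells and not in every cell of a heart, and since controls lacked the driver, an effect of Cre cannot be told apart from that of *Ctcf* in comparisons with controls.

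Iroquois proteins are homeodomain transcription factors of the TALE superclass, whose members carry a short extension in the homeodomain. Their genes lie in paralogous clusters that arose by duplication, and genes of a cluster often share enhancers and long-range contacts. In the heart, *Irx4* is known for its restriction to ventricular myocardium, where it helps to keep ventricular gene expression. *Irx3* is known from the trabecular myocardium and the ventricular conduction system, *Irx5* from the gradient of repolarization across the ventricular wall, and *Irx1* and *Irx2* from the ventricular septum and trabeculae. CTCF is a zinc finger protein that binds DNA and helps to shape loops and domains of chromatin.

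On the NCBIM37 build, the IrxA cluster spans 1.31 Mb of chromosome 13 and the IrxB cluster 0.882 Mb of chromosome 8. *Irx1* (ENSMUSG00000060969) lies on the minus strand of chromosome 13 from 72095680 to 72101171. *Irx2* (ENSMUSG00000001504) lies on the plus strand from 72766245 to 72771644, and *Irx4* (ENSMUSG00000021604) on the plus strand from 73397945 to 73407068. On chromosome 8, *Irx3* (ENSMUSG00000031734) lies on the minus strand from 94322428 to 94325553. *Irx5* (ENSMUSG00000031737) lies on the plus strand from 94881695 to 94885351 and *Irx6* (ENSMUSG00000031738) on the plus strand from 95198188 to 95204855. Their start sites are far apart, with 665 kb between *Irx1* and *Irx2*, 632 kb between *Irx2* and *Irx4*, 556 kb between *Irx3* and *Irx5* and 316 kb between *Irx5* and *Irx6*. The *Irx3* gene body overlaps an annotated noncoding transcript on the opposite strand, and the sources used here do not state that counting used strand.

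The family resemblance is shown by the stretch of coding sequence that all 6 genes share most closely. In each gene this stretch of 189 bases lies within 1 coding exon, in the homeobox. The sequences below run 5′ to 3′ along the coding strand of NCBIM37, and capitals mark the bases at which a gene differs from *Irx4*, which is therefore in lower case throughout.
Irx1: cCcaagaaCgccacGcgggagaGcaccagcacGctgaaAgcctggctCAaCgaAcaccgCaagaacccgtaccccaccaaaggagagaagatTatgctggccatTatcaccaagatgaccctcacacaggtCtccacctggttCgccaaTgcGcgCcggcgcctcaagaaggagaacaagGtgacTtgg
Irx2: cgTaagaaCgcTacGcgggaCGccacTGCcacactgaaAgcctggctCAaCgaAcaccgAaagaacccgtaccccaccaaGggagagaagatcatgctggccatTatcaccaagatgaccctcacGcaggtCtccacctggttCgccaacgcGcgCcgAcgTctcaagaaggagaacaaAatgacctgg
Irx4: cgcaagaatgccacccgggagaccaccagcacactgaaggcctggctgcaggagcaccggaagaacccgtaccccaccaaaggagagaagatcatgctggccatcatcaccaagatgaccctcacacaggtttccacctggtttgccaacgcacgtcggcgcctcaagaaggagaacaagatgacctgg
Irx3: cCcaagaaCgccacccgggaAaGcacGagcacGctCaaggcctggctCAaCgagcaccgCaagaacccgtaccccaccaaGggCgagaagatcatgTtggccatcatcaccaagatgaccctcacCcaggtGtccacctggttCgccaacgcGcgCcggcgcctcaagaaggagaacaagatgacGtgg
Irx5: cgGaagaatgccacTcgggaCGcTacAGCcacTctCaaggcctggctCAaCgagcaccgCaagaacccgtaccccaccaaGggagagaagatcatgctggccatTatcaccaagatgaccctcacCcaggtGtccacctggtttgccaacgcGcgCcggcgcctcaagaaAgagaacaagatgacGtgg
Irx6: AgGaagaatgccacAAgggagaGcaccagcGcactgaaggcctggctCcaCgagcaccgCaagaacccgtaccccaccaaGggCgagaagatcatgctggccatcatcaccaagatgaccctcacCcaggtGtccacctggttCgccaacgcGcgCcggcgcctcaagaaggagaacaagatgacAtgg
The stretches lie at chr13:72097431-72097619 on the minus strand in *Irx1*, chr13:72768121-72768309 on the plus strand in *Irx2* and chr13:73404980-73405168 on the plus strand in *Irx4*. Those of the IrxB genes lie at chr8:94324386-94324574 on the minus strand in *Irx3*, chr8:94883535-94883723 on the plus strand in *Irx5* and chr8:95201144-95201332 on the plus strand in *Irx6*. *Irx4* differs from *Irx6* at 17 of these bases, from *Irx1* and *Irx3* at 20 each, from *Irx5* at 22 and from *Irx2* at 25. Identity between pairs ranged from 86.8% for *Irx2* with either *Irx4* or *Irx6* to 92.6% for *Irx3* with *Irx6*. The longest run without a difference was 88 bases, between *Irx3* and *Irx6*, and for *Irx4* it was 41 bases, with *Irx6*. Over whole transcripts the genes are far less alike, and 0.583% of the 30-base windows of *Irx4* occur in another annotated gene. The share was 0.344% in *Irx1*, 1.39% in *Irx2*, 4.06% in *Irx3*, 2.79% in *Irx5* and 2.67% in *Irx6*, so reads that fit more than 1 family member could come from only a small portion of each transcript.

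Levels were deposited as normalized values, in which reads plus a small constant are scaled to a common library size. Sequencing depth differed, with 4294537 to 11629365 total reads behind a library, so that 1 read equaled 0.0901 to 0.231 on this scale. *Ctcf*, the deleted gene, had values of 121 to 122 in controls, 94.2 to 101 in heterozygotes and 79.6 to 84.7 in homozygotes, over all cells of the heart. Genes of cardiomyocytes were abundant in every library, with a summed value over 10 of them of 15937 to 23336, so the markers of the labelled tissue were present. Libraries of controls and heterozygotes are given in table order, and homozygotes in the order of replicates 1, 2 and 3.

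*Irx4* was the most abundant member in each genotype and the only member called in any comparison. Controls had *Irx4* values of 41.4, 47.0 and 45.4, heterozygotes of 46.1, 47.7 and 49.5 and homozygotes of 26.7, 25.8 and 22.0. Every homozygous library lay below every control and every heterozygous library, while controls and heterozygotes overlapped. These values rest on 117 to 470 reads per library. The mean fell from 44.6 ± 2.90 in controls (SD, n = 3) and 47.8 ± 1.67 in heterozygotes (SD, n = 3) to 24.8 ± 2.48 in homozygotes (SD, n = 3), or 55.7% of the control mean and 52.0% of the heterozygous mean. The log2 fold change of *Irx4* in homozygotes was -0.83 against controls (SE 0.09, 95% interval -1.02 to -0.65, limma adjusted p = 5.40e-05). Against heterozygotes, which carry the driver too, it was -0.93 (SE 0.09, 95% interval -1.12 to -0.75, limma adjusted p = 3.56e-05). In RNA from whole hearts, fewer *Irx4*-expressing cells and less *Irx4* RNA per cell cannot be told apart.

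In homozygotes against controls, 1 of the 5 members was called, which was *Irx4*, where calls were made at an adjusted p under 0.05 and 15.2% of all genes were called in either direction and 8.03% as lower. In homozygotes against heterozygotes it was again 1 of 5, beside 13.6% of all genes called and 6.7% called as lower. Homozygote and control libraries did not overlap for 2 of the 5 members, *Irx2* and *Irx4*, compared with 33.2% of all genes in either direction and 16.6% on the higher side, where *Irx2* lay. Between homozygotes and heterozygotes they did not overlap for 1 of 5, *Irx4*, compared with 30.8% of all genes. These comparisons share the homozygous libraries. Heterozygotes and controls gave no called member, with 20 genes or 0.143% called over the whole table by limma. At an unadjusted p under 0.05 they gave 1 member, *Irx2*, beside 1032 of all 14011 genes. Neither edgeR nor voom on the recovered reads called a member in this comparison.

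**Figure D1:**
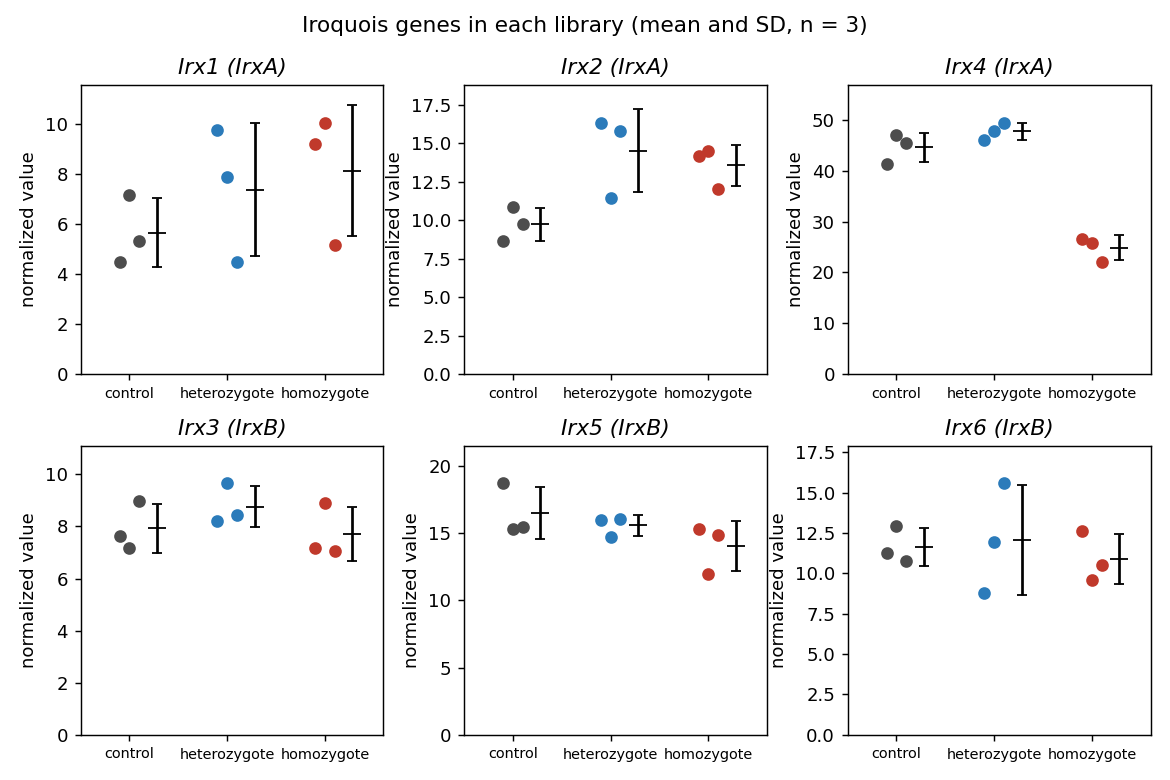
Normalized value of each Iroquois gene in each library, with the vertical axis from 0 in every panel, 1 point per library and the mean and SD of each genotype (n = 3) in black. The homozygous libraries of Irx4 sit between 22.0 and 26.7, below all others, and the heterozygous and homozygous libraries of Irx2 sit above the controls.

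*Irx2*, the neighbor of *Irx4* in the cluster, did not move with it. It was 8.67, 10.8 and 9.72 in controls, 16.3, 11.4 and 15.8 in heterozygotes and 14.2, 14.5 and 12.0 in homozygotes. All 6 libraries with the Cre driver were above all 3 control libraries, and heterozygotes and homozygotes overlapped. The mean of *Irx2* was 9.74 ± 1.08 in controls (SD, n = 3), 14.5 ± 2.70 in heterozygotes (SD, n = 3) and 13.6 ± 1.34 in homozygotes (SD, n = 3). In homozygotes against controls the log2 fold change was 0.46 (SE 0.15, 95% interval 0.13 to 0.79), and with a limma adjusted p = 0.0584 it was not called. The adjusted p ranged from 0.0352 to 0.172 over 20 alternatives and fell under the threshold in 3 of them. It was 0.0486 when genes with a value under 1 in any library were left out, 0.0484 when only the compared groups were fitted, and 0.0352 without the heterozygous library of 7946683 reads. Heterozygotes against controls gave 0.54 (SE 0.15, 95% interval 0.21 to 0.87, limma adjusted p = 0.346). *Irx2* was the only 1 of the 5 members without overlap in that comparison, beside 14.3% of all genes and 7.41% with heterozygotes higher. Homozygotes and heterozygotes differed by -0.08 in *Irx2* (95% interval -0.41 to 0.25, limma adjusted p = 0.778).

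*Irx1*, at the far end of the cluster, had the widest spread relative to its mean among members in each genotype. Its value was 4.48, 7.17 and 5.34 in controls, 9.76, 7.88 and 4.50 in heterozygotes and 9.20, 10.1 and 5.18 in homozygotes. Each genotype overlapped the others, and the values rest on 19 to 99 reads per library. The mean was 5.66 ± 1.37 in controls (SD, n = 3) and 8.15 ± 2.61 in homozygotes (SD, n = 3), and the log2 fold change was 0.46 (SE 0.28, 95% interval -0.15 to 1.07, limma adjusted p = 0.308). It was 0.29 without homozygote replicate 2 and 0.74 without homozygote replicate 3, and was called in neither case. The interval leaves room for a rise of the size seen in *Irx2* and for no difference, but not for a fall of the size seen in *Irx4*. Within IrxA, then, *Irx4* was lower in homozygotes with both intervals below 0, *Irx2* missed the threshold on the higher side, and *Irx1* was not resolved.

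No gene of the IrxB cluster was called in any comparison. *Irx3* was 7.62, 7.17 and 8.99 in controls, 8.19, 9.65 and 8.42 in heterozygotes and 7.15, 8.89 and 7.07 in homozygotes. All 3 genotypes overlapped, and homozygotes less controls gave a log2 fold change of -0.04 (SE 0.15, 95% interval -0.37 to 0.29, limma adjusted p = 0.896). *Irx5* was 18.7, 15.3 and 15.4 in controls, 15.9, 14.7 and 16.0 in heterozygotes and 15.3, 11.9 and 14.8 in homozygotes. The homozygous libraries of *Irx5* reached into the control range at 15.3, and the log2 fold change was -0.23 (SE 0.13, 95% interval -0.50 to 0.05, limma adjusted p = 0.258). It was -0.14 without the control library at 18.7 and -0.12 without the homozygous library at 11.9. *Irx6* was 11.2, 12.96 and 10.7 in controls, 8.78, 11.9 and 15.6 in heterozygotes and 12.6, 9.56 and 10.5 in homozygotes. It overlapped between all genotypes too, and homozygotes differed from controls by -0.10 on the log2 scale (SE 0.18, limma adjusted p = 0.770). On leaving out 1 library this value ranged from -0.14 to 0.05 for *Irx3* and from -0.20 to -0.01 for *Irx6*, and neither was called. The lower limits of the intervals of *Irx3* and *Irx5* lie above the upper limit for *Irx4* in this comparison.

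**Figure D2:**
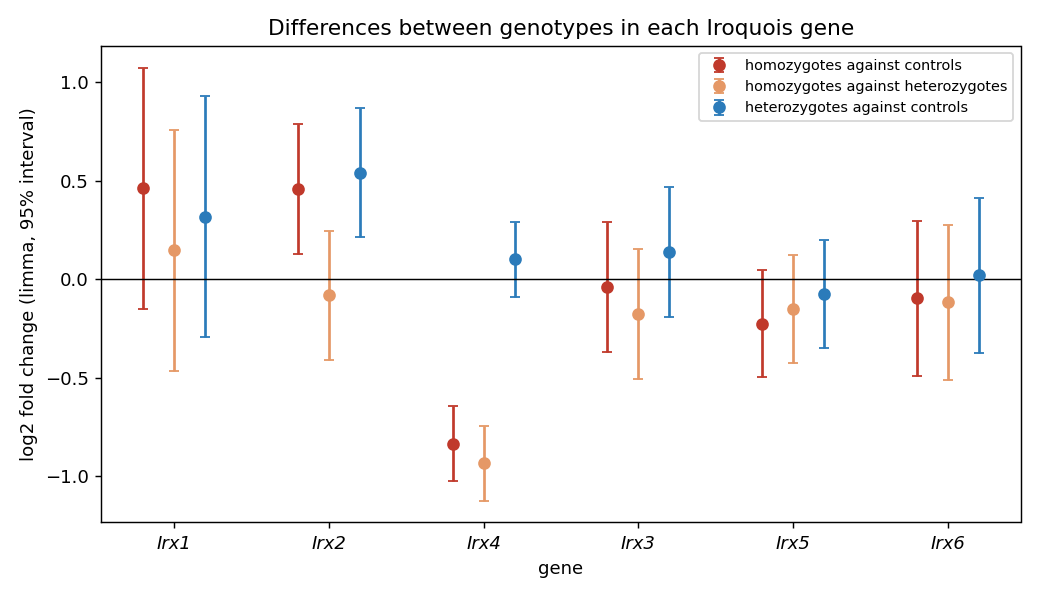
Log2 fold change of each Iroquois gene in the 3 comparisons, with points for the limma estimate and bars for its 95% interval. The intervals of Irx4 in both comparisons of homozygotes lie below 0, and those of Irx2 in both comparisons with controls lie above 0 although neither passed the adjusted threshold.

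Per kilobase of annotated exon, which allows levels of different genes to be compared, *Irx4* stood at the top and *Irx5* next in every genotype. In controls the level per kb was 17.1 for *Irx4* and 6.86 for *Irx5*, followed by 3.46 for *Irx6*, 3.38 for *Irx3*, 2.95 for *Irx2* and 2.75 for *Irx1*. *Irx4* and *Irx5* did not overlap each other or the next gene, whereas each of the other four overlapped its neighbors in the order. In heterozygotes the level per kb was 18.4 for *Irx4*, 6.48 for *Irx5* and 4.39 for *Irx2*, with *Irx3* at 3.73, *Irx6* at 3.59 and *Irx1* at 3.58. In homozygotes the levels per kb of *Irx4* and *Irx5* were 9.55 and 5.85, and *Irx2* followed at 4.11, *Irx1* at 3.95, *Irx3* at 3.28 and *Irx6* at 3.23. The leading pair kept its order in all 9 libraries, and the order of the other genes was within their spread. Among all genes in the table, 61.7% had a lower mean value than *Irx4*, 37.7% than *Irx5* and 24.5% than *Irx1*, so the family lay in the middle and lower range of expression.

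The balance within the family shifted with *Irx4*. Its share of the summed value per kb of the 5 members was 50.1%, 52.8% and 52.5% in controls, 47.2%, 51.2% and 52.5% in heterozygotes and 36.1%, 35.5% and 35.6% in homozygotes. The homozygous libraries lay within 1 percentage point of each other and below all 6 others. The share in homozygotes differed by -16.1 percentage points from that in controls (35.7% ± 0.302 against 51.8% ± 1.46, SD, n = 3 each) and by -14.6 from that in heterozygotes, each with an exact permutation p = 0.1, two-sided, which is the smallest that 3 libraries against 3 allow. The difference between heterozygotes and controls was -1.5 percentage points, with an exact permutation p = 0.5. As a share of reads, *Irx4* took 36.9% of 317 Iroquois reads in homozygote replicate 1 (95% Wilson interval 31.8% to 42.3%) and 51.3% of 692 in the first control library (47.6% to 55.0%). Intervals of this kind cover counting error only.

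**Figure D3:**
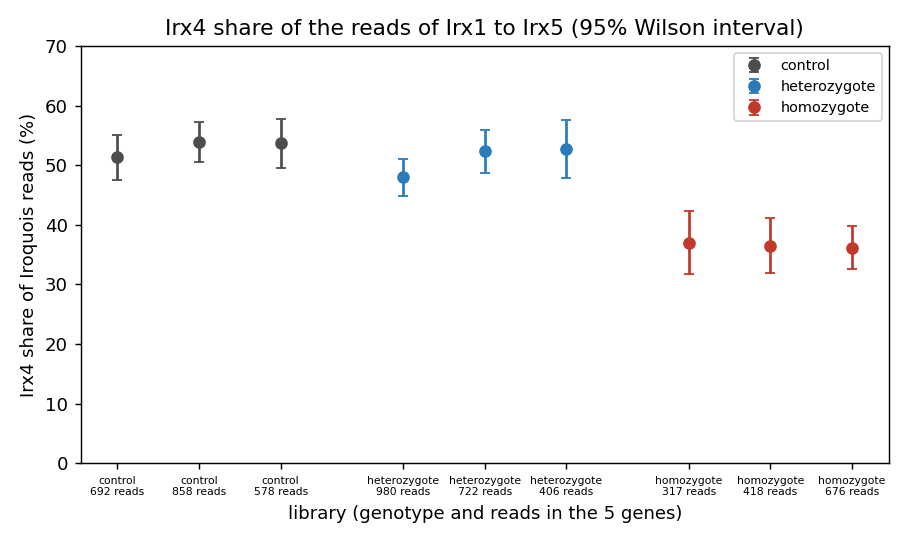
Irx4 share of the reads of Irx1, Irx2, Irx3, Irx4 and Irx5 in each library, in percent, with bars for the 95% Wilson interval and the number of reads under each library. The 3 homozygous libraries lie between 36.1% and 36.9%, with upper limits below the lower limits of all control and heterozygous libraries.

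The genes around each cluster were examined next, because CTCF acts on chromatin over distances of this order and a question of the study was how the *Irx4* region is organized. Within 1 Mb of the outer ends of the IrxA cluster, 12 neighbors of the 29 annotated genes had values. In homozygotes against controls 1 of these 12 was called higher and 3 were called lower, and against heterozygotes 4 were higher and 3 lower, beside 15.2% and 13.6% of all genes called in either direction. No neighbor was called in heterozygotes against controls by limma, and 1 had an unadjusted p under 0.05, beside 1032 of all 14011 genes. All 12 lie beyond *Irx4* on the side away from *Irx2*.

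The neighbors closest to *Irx4* did not fall with it. *Ndufs6*, which encodes an accessory subunit of respiratory complex I, starts 68.0 kb away, and *Mrpl36*, which encodes a protein of the mitochondrial ribosome, starts 2.47 kb from *Ndufs6* on the far side. *Ndufs6* was 72.6, 71.4 and 69.7 in controls, 77.2, 71.1 and 62.2 in heterozygotes and 86.2, 82.3 and 83.0 in homozygotes. Every homozygous library was above all others, and the log2 fold change was 0.23 against controls (SE 0.07, limma adjusted p = 0.051) and 0.26 against heterozygotes (limma adjusted p = 0.0353), so it passed the threshold in the second comparison. *Mrpl36* was 41.6, 45.3 and 40.3 in controls, 42.4, 43.1 and 45.3 in heterozygotes and 46.7, 49.2 and 53.1 in homozygotes. Its homozygous libraries also lay above all others, with a log2 fold change of 0.23 against controls (SE 0.08, limma adjusted p = 0.0617) and 0.18 against heterozygotes (limma adjusted p = 0.131). *Lpcat1*, which encodes an acyltransferase of phospholipid remodeling, starts 207 kb from *Irx4* and was 96.4, 96.2 and 111 in homozygotes, above the range of 68.4 to 87.9 of the other libraries. It rose by 0.35 against controls (SE 0.09, limma adjusted p = 0.0244) and by 0.38 against heterozygotes (limma adjusted p = 0.0172).

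Farther from *Irx4* the called neighbors included falls. *Nkd2*, which encodes an antagonist of Wnt signaling, was 2.85, 4.22 and 4.02 in controls, 2.99, 3.47 and 3.58 in heterozygotes and 0.568, 0.762 and 1.04 in homozygotes. All homozygous libraries were below all others, and *Nkd2* fell by 1.70 against controls on the log2 scale (SE 0.24, limma adjusted p = 0.000607), a change larger than that of *Irx4* in a gene of lower level. *Slc12a7*, which encodes a potassium and chloride cotransporter, differed by -0.42 on the log2 scale (limma adjusted p = 0.0179), and *Tppp*, which encodes a protein that promotes tubulin polymerization, had -0.50 (limma adjusted p = 0.0416). *Clptm1l* and *Trip13* were called higher against heterozygotes only, at 0.22 and 0.25 (limma adjusted p = 0.0316 and 0.0485), and against controls they were 0.18 and 0.07. *Tert*, *Brd9*, *Cep72* and *Exoc3* were called in none of the comparisons.

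Around the IrxB cluster, 8 neighbors of 29 annotated genes had values and 1 was called, in both comparisons of homozygotes, a share near the 15.2% and 13.6% of all genes called. *Chd9*, which encodes a chromodomain helicase, lies farthest from the cluster among them and was 41.1, 42.3 and 46.3 in controls, 36.3, 39.0 and 36.6 in heterozygotes and 29.2, 33.9 and 26.6 in homozygotes. Its groups followed each other without overlap, and homozygotes differed from controls by -0.53 on the log2 scale (SE 0.09, limma adjusted p = 0.00242) and -0.32 against heterozygotes (limma adjusted p = 0.0367). *Fto*, which encodes an RNA demethylase and whose introns are known to hold enhancers that contact *Irx3*, had a log2 fold change of 0.01 against controls (SE 0.07, limma adjusted p = 0.935). *Rbl2*, *Aktip*, *Rpgrip1l*, *Mmp2* and *Slc6a2* were not called in any comparison, nor was *4933436C20Rik*, a transcript that starts 1.68 kb from *Irx5* on the opposite strand.

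**Figure D4:**
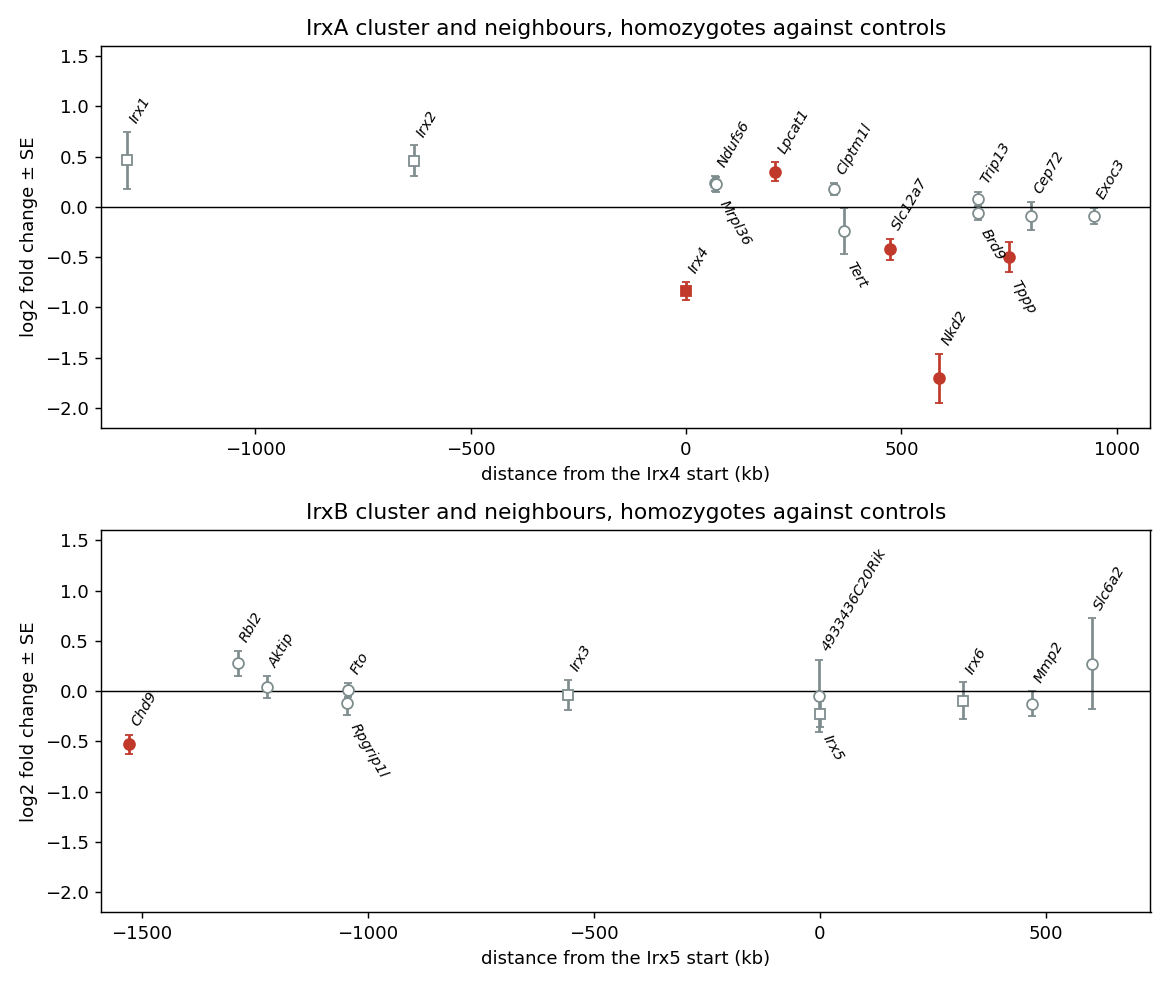
Log2 fold change in homozygotes against controls, with bars for the standard error, against the distance of each gene's start from the start of Irx4 (top) or Irx5 (bottom), in kb. Squares are Iroquois genes and circles neighbors, and filled red symbols were called at an adjusted p under 0.05. In IrxA, Irx4, Slc12a7, Nkd2 and Tppp were called lower and Lpcat1 was called higher. All neighbors of IrxA with values, called or not, lie beyond Irx4 on the side away from Irx2. In IrxB only Chd9 was called.

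The intervals between start sites were searched for AGGGGGCGC, a stretch of the core of the CTCF motif, on both strands, since loss of CTCF was what the genotypes compared. The interval from *Irx2* to *Irx4* held 1 match in 632 kb, 99.9 kb before the *Irx4* start, and 52.4% of 185 windows of that length along chromosome 13 held at least 1. The interval from *Irx1* to *Irx2* held 2, close to the *Irx2* start, and 27.3% of windows of its length held as many. No match lay between *Irx4* and *Ndufs6*, where 9.58% of windows of the same length held one. In IrxB there was no match between *Irx3* and *Irx5* and there were 4 between *Irx5* and *Irx6*, as many as in 2.71% of windows of that length. A longer and looser form of the core, of 12 letters with 3 of them free, gave other counts. It matched 11 times between *Irx2* and *Irx4*, where windows of that length held a median of 4 and 10.3% held as many, and once between *Irx4* and *Ndufs6*, where 38.2% of windows held a match. It matched 6 times between *Irx1* and *Irx2*, 5 times between *Irx3* and *Irx5* and 3 times between *Irx5* and *Irx6*, as many as in 42.1%, 50.2% and 46.6% of windows. The rank of an interval therefore depended on the form searched. The matches of the IrxA cluster to AGGGGGCGC are shown with 14 bases on each side, read 5′ to 3′ along the strand of the match on NCBIM37, with the 9 searched letters in capitals.
635 kb before the *Irx4* start: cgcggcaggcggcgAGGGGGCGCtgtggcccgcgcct
633 kb before the *Irx4* start: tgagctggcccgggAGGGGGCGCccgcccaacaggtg
99.9 kb before the *Irx4* start: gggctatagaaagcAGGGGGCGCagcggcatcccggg
These lie at chr13:72762828-72762864 and chr13:72765005-72765041 on the minus strand and chr13:73297999-73298035 on the plus strand, in the order printed, and overlap no annotated gene. Of the matches between *Irx5* and *Irx6*, 1 lies in *Irx5* itself. A match describes letters and not binding, which was not analysed here. The study points to CTCF sites, known from published ChIP-seq of hearts, both between *Irx2* and *Irx4* and between *Irx4* and *Ndufs6*. A missing match therefore does not mean a missing site. Promoters of 300 bases from RefSeq on GRCm38.p6 matched 3 members, *Irx2*, *Irx3* and *Irx4*. Of the 19 genes of both regions with a promoter entry, 1 held these letters (*Tert*), beside 1.25% of 32851 promoters.

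Of 16 regulators and partners that are placed beside Iroquois genes in heart development, 5 were called lower and none higher in homozygotes against controls, with a list median of -0.14 on the log2 scale, beside a median of -0.0011 and 8.03% called lower over all genes. Against heterozygotes 8 were lower, with a median of -0.31, beside -0.0045 and 6.7% over all genes. *Nkx2-5*, a core cardiac transcription factor needed for *Irx4* expression, was 75.4 in controls, 57.0 in heterozygotes and 38.8 in homozygotes on average. Its log2 fold change was -0.95 in homozygotes against controls (SE 0.08, limma adjusted p = 7.38e-06), and the Cre driver bears the name of this gene. *Hey2*, a Notch target and repressor of atrial genes in the ventricle, had a mean of 69.8 in controls, 68.2 in heterozygotes and 41.5 in homozygotes (log2 fold change -0.74 against controls, limma adjusted p = 2.20e-05). *Mef2c*, *Hand1* and *Tbx20*, which encode cardiac transcription factors, also fell against controls, by 0.42, 0.45 and 0.42 on the log2 scale. *Gata4*, *Gata6* and *Hand2* were not called, at -0.10, -0.08 and -0.06.

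Genes that earlier work places under *Irx3*, *Irx4* or *Irx5* in heart cells were lower where they were called. The list does not separate reported activation from reported repression, so its medians have no expected direction. Values were available for 12, of which 6 were lower in homozygotes against controls (list median -0.38) and 7 against heterozygotes (list median -0.60). Over all genes 8.03% and 6.7% were called lower, with medians of -0.0011 and -0.0045. *Gja5*, the connexin of trabecular and conducting cells, had a mean of 135 in controls, 142 in heterozygotes and 45.2 in homozygotes, and its log2 fold change against controls was -1.59 (SE 0.17, limma adjusted p = 5.41e-05). *Gja1*, the main ventricular connexin, had means of 157, 185 and 75.8 and a log2 fold change of -1.05 (SE 0.08, limma adjusted p = 2.95e-06). *Kcnd2*, a potassium channel subunit known to be repressed by *Irx5*, averaged 4.18, 2.76 and 1.59 in the same order of genotypes. Homozygotes differed in it by -1.23 on the log2 scale from controls (limma adjusted p = 0.00999) and by -0.70 from heterozygotes, which was not called (limma adjusted p = 0.112). *Cxcl12*, a chemokine, and *Nppa*, the atrial natriuretic peptide, were lower too, at -0.81 and -0.40. *Myl2*, *Myl7* and *Smpx*, genes of the contractile apparatus, were not called, at 0.08, 0.05 and -0.07. No gene of either list was called in heterozygotes against controls.

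Other homeobox genes of the TALE superclass were not called. Values were available for 10, and none passed the threshold in any comparison by limma, with 0 at an unadjusted p under 0.05 in homozygotes against controls and 3 in homozygotes against heterozygotes. Over all 14011 genes 4145 and 3874 had an unadjusted p under 0.05 in these comparisons. *Pbx2*, *Meis2* and *Meis1*, cofactors of Hox proteins, had log2 fold changes of -0.06, -0.27 and -0.13 against controls.

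**Figure D5:**
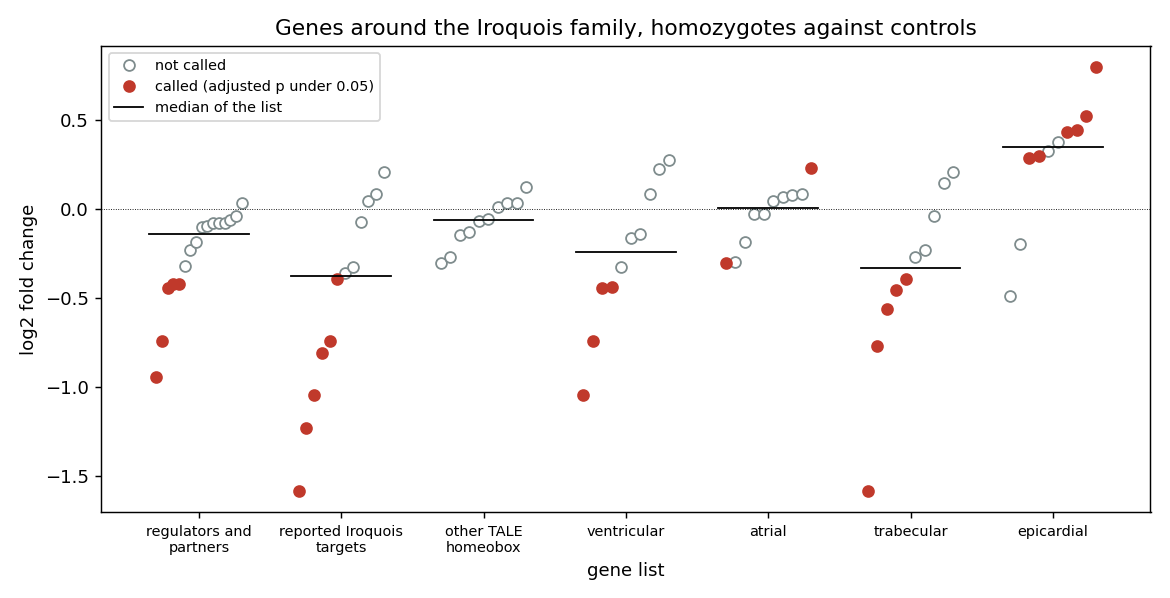
Log2 fold change in homozygotes against controls for each gene with values in 7 lists, with filled red points for genes called at an adjusted p under 0.05 and a line at the median of each list. The called genes among regulators, reported targets and trabecular genes lie below 0, those among epicardial genes lie above 0, and no other TALE homeobox gene was called.

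Markers of chambers and cell types moved with *Irx4* to different degrees, and their part in its fall was not tested. Of 10 ventricular genes 4 were lower in homozygotes against controls and 7 against heterozygotes, where 8.03% and 6.7% of all genes were called lower, and none was higher. The lists overlap, with *Hand1* and *Hey2* also among the regulators and *Gja1*, *Myh7* and *Myl2* also among the reported targets. The summed ventricular value was 7157 to 8671 in controls, 8586 to 10425 in heterozygotes and 6970 to 8076 in homozygotes, so that homozygotes overlapped controls and lay below every heterozygous library. Sums of this kind are carried by the most abundant genes, here *Myh7* and *Myl2*, with means of 3636 and 2223 in controls. The ventricular light chain genes *Myl2* and *Myl3* had log2 fold changes of 0.08 and 0.23 against controls and were not called. Of 10 cardiomyocyte genes 2 were lower in homozygotes against controls, *Ryr2* and *Actn2*, and 4 against heterozygotes, with *Myh6* and *Myh7*, also reported targets, in addition. The summed cardiomyocyte value of 15937 to 19485 in homozygotes overlapped that of 17610 to 20339 in controls and lay below that of 19744 to 23336 in heterozygotes. Of 10 atrial genes 1 was higher against controls, *Myl4*, and 1 was lower, *Angpt1*, while *Angpt1* and *Tbx5* were lower against heterozygotes. The summed atrial value was 3784 to 4166 in controls, 4196 to 4458 in heterozygotes and 4258 to 4510 in homozygotes.

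Of 10 trabecular genes, a list that includes *Irx3* itself, 5 were lower in homozygotes against controls (*Cited1*, *Erbb2*, *Erbb4*, *Gja5* and *Nppa*) and none was higher, and 4 of these, all but *Erbb4*, were lower against heterozygotes, where 8.03% and 6.7% of all genes were called lower. *Gja5*, *Nppa* and the uncalled *Nppb* are also among the reported targets. *Nppb*, *Sema3c* and *Bmp10* were called in neither comparison of homozygotes, at 0.21, -0.27 and -0.23 against controls on the log2 scale. Every homozygous library of *Nppb* lay above every heterozygous one. The summed trabecular value was 1283 to 1532 in controls and 1451 to 1499 in heterozygotes, above the 840 to 1143 of homozygotes. *Nppa* alone averaged 750 in controls, 825 in heterozygotes and 578 in homozygotes. *Erbb2* and *Erbb4* encode receptors of the neuregulin signal that trabeculae need. Of epicardial genes 6 of 10 were called higher and none lower (*Krt18*, *Lrrn4*, *Tbx18*, *Upk1b*, *Upk3b* and *Wt1*) in homozygotes against controls, beside 7.19% of all genes called higher, and 5 of 10 against heterozygotes, all of these but *Krt18*, beside 6.87%. *Krt8*, whose product pairs with that of *Krt18*, was at -0.49 against controls and not called (limma adjusted p = 0.141), although all 3 homozygous libraries (27.0 to 38.0) were below all 3 controls (40.6 to 55.9). The summed epicardial value was 578 to 611 in controls, 579 to 619 in heterozygotes and 731 to 806 in homozygotes. *Upk1b* had a log2 fold change of 0.80 and *Wt1*, an epicardial transcription factor, of 0.52 (limma adjusted p = 1.91e-05 and 0.00153).

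Of 10 endothelial and endocardial genes 1 was higher in homozygotes against controls, *Emcn*, and 2 were lower, *Kdr* and *Npr3*, and against heterozygotes *Kdr* was lower. Of 10 cushion genes 2 were lower in both comparisons, *Postn* and *Vcan*. Over all genes 15.2% and 13.6% were called in either direction in these comparisons, and 8.03% and 6.7% as lower. The neural tube and the foregut also use Iroquois genes, and their markers were scarce in these hearts. Values were available for 5 of 10 neural genes, with a summed value of 4.65 to 15.4 per library, and *Sox3* was lower in homozygotes at -1.48 (limma adjusted p = 0.00441). For 4 of 10 foregut genes the summed value was 1.93 to 36.9 per library and none was called. The highest foregut sum, 36.9, and the highest neural sum, 15.4, were in the same control library, while the other libraries had foregut sums of 1.93 to 14.4. This is also the control library with the highest *Irx5* value, 18.7, without which the *Irx5* change against controls was -0.14. The part of these markers in that value was not tested. *Irx4* was called lower without that library too, at -0.89 against controls.

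The genes whose pattern over the 9 libraries was most like that of each member were taken from the 11127 genes that averaged 5 or more, by Pearson's r on the log2 scale. For *Irx4* these were *Aldh5a1* (r = 0.990), *Gja1* (r = 0.989), *Mmp15* (r = 0.988), *Marveld1* (r = 0.987) and *Timp2* (r = 0.985), on 5 chromosomes. Being chosen for likeness to *Irx4*, each of these 5 had its lowest mean in homozygotes. For *Aldh5a1* the means were 36.2 in controls, 37.5 in heterozygotes and 14.8 in homozygotes. The closest genes to *Irx2* were *Atg13* (r = 0.934), *Dcaf8* and *Rad17*, and to *Irx1* *Mcam* (r = 0.903), *Pank4* and *Ercc6l*. For *Irx3* they were *Gfm2* (r = 0.954), *Arsb* and *Pomt1*, and for *Irx5* *Bcap29* (r = 0.956), *4931406C07Rik* and *Rnpep*. None of these lists held another Iroquois gene. The highest r between *Irx4* and another Iroquois gene was 0.48, with *Irx5*, and between *Irx1* and *Irx2* it was 0.51. The 9 points share libraries, depth and genotype, and these values are descriptions.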

How the data were processed

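RNA-seq was performed by the authors on 9 libraries of pooled E10.5 hearts, and the submitters' processing notes list CASAVA 1.8, cutadapt 1.6.1, RSEM 1.20, Bowtie2 0.12.7, as written there, and limma, on NCBIM37. The study's methods name Ensembl build 65. Normalization and filtering are not given in the sources used here. The authors deposited 1 table of normalized signal values, and each value was found to be a whole number of reads plus 0.5, scaled to total reads times edgeR's TMM factor. Whole reads were recovered for 100% of values (tolerance 0.01 of a read). Columns named DH were read as heterozygotes, from the double heterozygous hearts of the growth protocol. Columns named Het were read as controls, which the study's methods describe as heterozygous for the floxed allele, although the name resembles the titles of the heterozygous samples. Group averages in a supplementary table of the study were used to settle this reading. Within each genotype, libraries differed by more than sampling noise (chi-square over degrees of freedom, 3.33 to 7.35), and p-values measure the spread between pools.

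Values were analyzed as log2(value + 0.5) with limma 3.58.1 in R 4.3.3, with 9 libraries and 3 genotypes in one fit, a mean-variance trend, p-values adjusted over 14011 genes by Benjamini-Hochberg, called at an adjusted p under 0.05. Fold changes on this scale understate changes of low genes. The *Irx4* share was tested with exact two-sided permutation over libraries. Gene names, exon lengths and coordinates were taken from GENCODE M1, where 13987 genes were found and 24 were not. Promoters came from RefSeq on GRCm38.p6. The CTCF core whose matches are printed was chosen after the longer and looser form had been searched. The methods were tested on simulated data.

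The members and gene lists were chosen with earlier results of these data known. Genes named were *Ctcf*, the members, all genes with values within 1 Mb of either cluster, up to 6 called genes by smallest adjusted p and up to 3 uncalled genes by highest mean per list, the 5 genes most like *Irx4* and the 3 most like each other member. *Irx6*, *Cxcl12* and called genes that complete a count were named outside this rule. Alternatives were other pseudocounts, filters, normalizations and thresholds, a fit of only the compared groups, removal of a trend with exonic length, edgeR 4.0.16 and voom on the recovered reads, a replicate block and leaving out each library. Chromatin conformation and CTCF binding were not analysed here, and 1 gene counted in a list is not reported here by name.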

Additional observations from a re-analysis of the deposited data

How the results depend on the processing

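*Irx4* was called lower in both comparisons of homozygotes under all 20 alternatives, with log2 fold changes from -0.89 to -0.75 against controls and from -0.99 to -0.85 against heterozygotes. The number of members called in homozygotes against controls rose from 1 to 2, with *Irx2* called higher, when genes under 1 in any library were left out, when only the compared groups were fitted, and without heterozygote replicate 2 (leaving out 1 library gave 1 to 2). Over 6 Iroquois genes and 3 comparisons, 343 of 360 values kept their direction and side of the threshold, 3 were newly called (*Irx2*) and 14 reversed, all of them uncalled. With leave-one-out ranges of the log2 fold change, reversals were *Irx3* in homozygotes against controls (-0.14 to 0.048) and, in homozygotes against heterozygotes, *Irx1* (-0.15 to 0.42, and -0.16 with voom), *Irx2* (-0.24 to 0.0083) and *Irx6* (-0.32 to 0.076). In heterozygotes against controls they were *Irx5* (-0.12 to 0.016) and *Irx6* (-0.17 to 0.22, with -0.0048 by edgeR and -0.099 by voom). The *Irx4* share in heterozygotes less that in controls reversed to 0.0252 points without heterozygote replicate 1 and ranged from -2.58 to 0.0252 on leaving out 1 library. Adding *Irx6* to the sum, an alternative chosen after seeing the data, gave -15.0 points for homozygotes against controls.

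Counts over all genes moved more. In homozygotes against controls they were 1395 with the exonic length trend removed, 1196 without the mean-variance trend, 858 at an adjusted p under 0.01 and 1049 to 2084 on leaving out 1 library, with 1049 without the control library of 6698891 reads (control replicate 3) and 1267 without homozygote replicate 3. Against heterozygotes they were 1063 without the mean-variance trend, 722 at 0.01 and 1023 to 1859 on leaving out 1 library, with 1257, 1223 and 1023 without heterozygote replicates 2 and 3 and homozygote replicate 3. In heterozygotes against controls they were 8 with genes under 1 left out, 10 without the mean-variance trend, 13 at 0.01 and 13 to 25 on leaving out 1 library, with 13 without heterozygote replicate 3. The cause was not tested. Replicate numbers of controls and heterozygotes here follow table order. Same-numbered libraries had correlations of deviations from -0.143 to 0.128, and differently numbered ones from -0.131 to 0.178. These ranges do not set same-numbered libraries apart, and a shared litter or batch was not tested. A replicate block gave 1756, 1553 and 15 genes and 1, 1 and 0 members, and not every library correlated best with its own number. With 19 to 99 reads per library, *Irx1* had an SE of 0.28 against controls, beside 0.15 for *Irx3* with 31 to 83 reads. The part of depth in the spread of *Irx1* was not tested.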
